A study of Mus musculus with 6 samples.

Results

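The genes described here are 10 regulators of mRNA stability, Arid5a, Zfp36, Zfp36l1, Zfp36l2, Elavl1, Elavl2, Elavl3, Elavl4, Khsrp and Hnrnpd, in cultured mouse cortical neurons stimulated with NMDA. They were chosen by gene symbol and by their known roles, as 5 stabilisers and 5 destabilisers of mRNA, at a time when the differences between NMDA and control libraries were already known. Each matched 1 row of the 38293 in the count table, and all 10 were among the 14642 genes that passed the low-count filter. The changes between the groups are therefore a description of these genes: each adjusted p says where a gene stands among all genes tested and is no independent evidence for the list.

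RNA was sequenced from 3 NMDA libraries and 3 control libraries of wild-type primary cortical neurons, made from embryonic day 16 Swiss-Webster mice and kept 13 days in vitro. NMDA, a glutamate receptor agonist, was applied at 50 µM for 10 minutes, and the cells were collected after a further 50 minutes without the drug. The controls were labelled as having no treatment, and no library used here is labelled with etoposide, which the shared growth protocol mentions. The labels list 3 libraries in each group while their extraction protocol speaks of 2 biological replicates, so the p-values measure the spread between these libraries, part of which may be technical. The libraries held 15417234 to 18606264 counts with NMDA and 17860691 to 19183999 in controls.

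Many short-lived mRNAs carry AU-rich elements in the 3′ untranslated region. Zfp36 (also called tristetraprolin) and its relatives Zfp36l1 and Zfp36l2 bind these elements through a tandem zinc finger and recruit the enzymes that shorten the poly(A) tail, after which the mRNA is decapped or degraded by the exosome. Khsrp and Hnrnpd (also called AUF1) bind AU-rich mRNAs and promote their decay, Hnrnpd with effects that vary between targets and isoforms. The ELAVL proteins bind the same kind of sequence and mostly stabilise it: Elavl1 (HuR) is made in nearly all cells, and Elavl2, Elavl3 and Elavl4 are largely restricted to neurons. Arid5a, known mainly from macrophages and T cells, binds mRNAs such as that of interleukin 6 and protects them from the endonuclease Zc3h12a (Regnase-1).

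Arid5a was the only one of the 10 that passed the edgeR threshold (adjusted p under 0.05) with group as the only term, and it was higher in NMDA libraries. Among all tested genes 0.376% were called higher and 0.0546% lower in that fit. A second fit compared libraries of the same replicate number with each other (the replicate block, or within pairs). This pairing was read from the data and not from the labels. The second fit left 2 residual degrees of freedom, against 4 with group alone. In it 5 of the 10 rose, Arid5a, Zfp36, Zfp36l2, Elavl3 and Hnrnpd, and none fell, beside 5.65% of all tested genes higher and 8.35% lower. With GC and length offsets added to that fit, the split over all tested genes turned to 1148 higher and 967 lower, from 828 higher and 1223 lower without them. In the same 5 genes all 3 NMDA libraries lay above all 3 control libraries, as they did in 8.18% of tested genes, while in 11.1% all NMDA libraries lay below. Since the list was chosen with this contrast known, nothing is read from these shares.

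**Figure D1:**
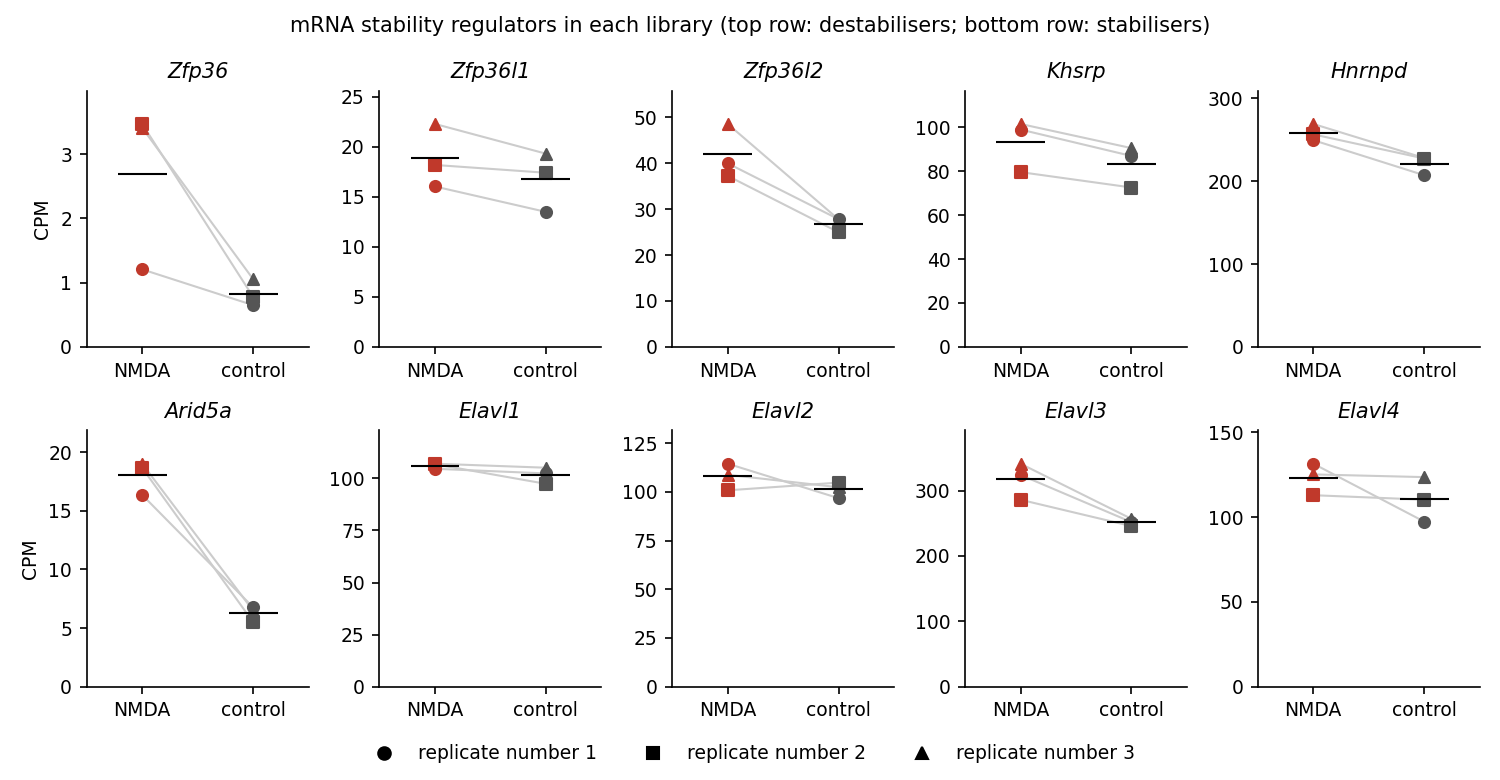
Counts scaled to library size (CPM, linear axes from 0, a separate scale for each gene) of the 10 genes in the NMDA libraries (red, left) and control libraries (grey, right); grey lines join libraries of the same replicate number and black bars are group means. Arid5a, Zfp36, Zfp36l2, Elavl3 and Hnrnpd show no overlap between the groups, and Zfp36 in NMDA replicate 1 lies near the control values.

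Arid5a encodes a protein with an ARID domain, a DNA-binding fold, that also binds RNA. On GRCm38 the gene (ENSMUSG00000037447) lies on the plus strand at chr1:36307733-36324029, and no other annotated gene shares its exons. It had 16.4, 18.7 and 19.0 CPM in NMDA replicates 1, 2 and 3, and 6.77, 5.50 and 6.49 CPM in control replicates 1, 2 and 3. The lowest NMDA library lay far above the highest control library, and the spread within each group was small. The raw counts behind these values were 244, 339 and 357 in NMDA libraries and 125, 99 and 123 in control libraries. The log2 fold change was 1.53 ± 0.14 (SE), a 2.88-fold higher level, with an edgeR adjusted p of 0.0014, and 1.53 ± 0.12 with the replicate block (adjusted p = 6.84e-08). By p it stood in position 9 and by log2 fold change in position 26 of the 14642 tested genes. Within the pairs of replicates 1, 2 and 3 the differences in log2 CPM, NMDA minus control, were 1.26, 1.74 and 1.54.

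The promoter of Arid5a, 250 bases before and 50 after the annotated start (RefSeq, GRCm38.p6, plus strand, chr1:36307483-36307782), is shown because this gene had the change that passed in every fit. It was searched on both strands for the TATA box and for motifs of factors that respond to neuronal activity or stress. These included the CArG box of serum response factor and the NF-kappaB site. The cyclic AMP response element was searched as TGACGTCA, and a shorter form, which lies inside it, as TGACG. The AP-1 site was searched as TGANTCA. The EGR site was searched as GCGNGGGCG, and the TATA box as TATAAA. Of the 32851 promoters of this length, 1.79% held TGACGTCA, 20.8% TGACG, 7.81% the AP-1 site, 13.6% the TATA box and 4.51% the NF-kappaB site. No letters are in capitals, since none of these was found in this window.
Arid5a: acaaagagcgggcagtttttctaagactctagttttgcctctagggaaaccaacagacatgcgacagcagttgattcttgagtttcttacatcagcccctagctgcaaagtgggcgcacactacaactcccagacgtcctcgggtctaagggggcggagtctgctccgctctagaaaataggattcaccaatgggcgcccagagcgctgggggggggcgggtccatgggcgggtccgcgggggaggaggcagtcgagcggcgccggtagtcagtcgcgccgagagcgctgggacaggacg

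The 3 genes whose profiles were nearest to that of Arid5a were Fosl2, which encodes an AP-1 component, Sertad1, which encodes a transcriptional coregulator, and Adamts1, which encodes a secreted metalloprotease. Likeness was the root mean square difference in log2 CPM over the 6 libraries, after centring on the control mean, among 12551 other genes of at least 2 CPM. The values were 0.18 for Fosl2, 0.21 for Sertad1 and 0.21 for Adamts1. Their log2 fold changes were 1.43 ± 0.16, 1.50 ± 0.25 and 1.52 ± 0.20 (SE), and all 3 passed without the block (edgeR adjusted p = 0.0056, 0.034 and 0.0099).

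Among the destabilisers, Zfp36 had the largest fold change and the lowest level. The gene (ENSMUSG00000044786) lies on the minus strand at chr7:28376784-28380253. It had 1.21, 3.47 and 3.41 CPM in NMDA replicates 1, 2 and 3, from 18, 63 and 64 counts, and 0.650, 0.778 and 1.06 CPM in control replicates 1, 2 and 3, from 12, 14 and 20 counts. NMDA replicates 2 and 3 stood well above every control, whereas NMDA replicate 1 exceeded control replicate 3 by little, with fewer raw counts from a smaller library. The log2 fold change was 1.71 ± 0.42 (SE) and did not pass without the block (edgeR adjusted p = 0.16). Within pairs Zfp36 rose by 1.67 ± 0.29 (adjusted p = 6.16e-04), with differences of 0.79, 2.01 and 1.59 in pairs 1, 2 and 3. Of the fits with group alone that left out 1 library, Zfp36 passed only without NMDA replicate 1, at 2.06 (edgeR adjusted p = 0.018). That fit also called more of all tested genes, 89 higher and 57 lower against 55 and 8. The low counts of Zfp36 limit its precision more than that of any other gene of the list.

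The Zfp36 promoter (RefSeq, GRCm38.p6, minus strand, chr7:28379179-28379478) held 1 CArG box, beginning 58 bases before the annotated start, and 1 EGR site, GCGGGGGCG, beginning 105 bases before it, which are in capitals. A CArG box was present in 1.63% and an EGR site in 5.55% of the 32851 mouse promoters of this length. Among the genes described here with a matched promoter, Hnrnpd and some promoters of Elavl4 also held a CArG box. No other held an EGR site. Hnrnpd rose within pairs, and Elavl4 passed neither with group alone nor with the block. Whether the CArG box had a part in these changes was not tested. These matches are letters in a window and say nothing of binding in these cells. Of the factors that bind them, Srf was at 38.9 ± 3.95 CPM in NMDA and 23.5 ± 0.901 CPM in control libraries (SD, n = 3 each; log2 fold change 0.73 ± 0.11, edgeR adjusted p = 0.016), and Egr1 at 152 ± 14.7 CPM in NMDA and 37.6 ± 6.38 CPM in control libraries (2.01 ± 0.13, adjusted p = 1.17e-04).
Zfp36: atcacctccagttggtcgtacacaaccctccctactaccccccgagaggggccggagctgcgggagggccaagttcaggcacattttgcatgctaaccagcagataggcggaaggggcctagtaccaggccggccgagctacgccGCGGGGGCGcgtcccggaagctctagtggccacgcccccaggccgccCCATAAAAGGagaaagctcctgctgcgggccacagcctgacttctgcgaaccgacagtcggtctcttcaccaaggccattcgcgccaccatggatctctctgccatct

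Zfp36l2 (ENSMUSG00000045817, chr17:84183931-84187947, minus strand) was higher by a smaller factor and at a higher level. It had 40.0, 37.2 and 48.5 CPM in NMDA replicates 1, 2 and 3, and 27.8, 25.0 and 27.7 CPM in control replicates 1, 2 and 3. The groups did not overlap, and NMDA replicate 3 was the highest library. The log2 fold change was 0.64 ± 0.12 (SE), which just missed the threshold without the block (edgeR adjusted p = 0.061) and passed within pairs (0.64 ± 0.09, adjusted p = 3.86e-05), where pairs 1, 2 and 3 differed by 0.52, 0.58 and 0.80. Of the fits with group alone that left out 1 library, Zfp36l2 passed only without NMDA replicate 1 (0.69, edgeR adjusted p = 0.047).

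Zfp36l1 (ENSMUSG00000021127, chr12:80107754-80113013, minus strand), the third relative, had 16.03, 18.2 and 22.3 CPM in NMDA replicates 1, 2 and 3, and 13.5, 17.4 and 19.3 CPM in control replicates 1, 2 and 3. The groups overlapped, and replicate 3 was the highest and replicate 1 the lowest library of both groups. The log2 fold change was 0.17 ± 0.17 (SE) without and 0.17 ± 0.10 with the block, and neither passed (edgeR adjusted p = 0.68 and 0.27). As a share of the 3 genes' summed level in TPM (counts scaled to exonic length and library size), Zfp36l1 made up 31.5%, 34.5% and 33.6% in NMDA libraries and 35.9%, 44.4% and 44.2% in control libraries, without overlap. The share of Zfp36l2 was 66.5%, 59.8% and 62.0% in NMDA libraries and 62.6%, 53.9% and 53.8% in control libraries, and that of Zfp36 2.04%, 5.67% and 4.43% in NMDA libraries and 1.49%, 1.71% and 2.08% in control libraries. Both overlapped between the groups, yet each was higher in NMDA than in control in all 3 pairs, as was the family's summed level, and the share of Zfp36l1 was lower in all 3. The family's summed level was 55.2 ± 10.9 TPM in NMDA and 39.5 ± 8.53 TPM in control libraries (SD, n = 3 each).

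Hnrnpd (ENSMUSG00000000568, chr5:99955935-99978938, minus strand) had 250, 257 and 269 CPM in NMDA replicates 1, 2 and 3, and 207, 227 and 228 CPM in control replicates 1, 2 and 3. All NMDA libraries were above all controls, by a small factor of 1.17. The log2 fold change of 0.23 ± 0.08 (SE) did not pass without the block (edgeR adjusted p = 0.29) and was close to the threshold with it (adjusted p = 0.044). Khsrp (ENSMUSG00000007670, chr17:57021051-57031522, minus strand) had 98.9, 79.5 and 101 CPM in NMDA replicates 1, 2 and 3, and 86.9, 72.5 and 90.5 CPM in control replicates 1, 2 and 3. Its groups overlapped, with replicate 2 the lowest of both, while the differences of 0.19, 0.13 and 0.17 in pairs 1, 2 and 3 were alike. Khsrp passed in neither fit (log2 fold change 0.16 ± 0.12 without the block, edgeR adjusted p = 0.58; 0.16 ± 0.07 with it, adjusted p = 0.13).

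Among the ELAVL stabilisers, Elavl3 (ENSMUSG00000003410, chr9:22015005-22052023, minus strand), one of the neuronal members, had 324, 286 and 341 CPM in NMDA replicates 1, 2 and 3, and 252, 246 and 257 CPM in control replicates 1, 2 and 3. The control libraries were close together and the NMDA libraries all lay above them. The log2 fold change of 0.33 ± 0.09 (SE) did not pass without the block (edgeR adjusted p = 0.18), and Elavl3 rose within pairs (0.33 ± 0.08, adjusted p = 0.0061), by 0.36, 0.22 and 0.41 in pairs 1, 2 and 3.

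The other neuronal members, Elavl2 (ENSMUSG00000008489, chr4:91250763-91400785) and Elavl4 (ENSMUSG00000028546, chr4:110203722-110351909), both on the minus strand, did not separate the groups. Elavl2 had 114, 101 and 109 CPM in NMDA replicates 1, 2 and 3, and 96.8, 105 and 102 CPM in control replicates 1, 2 and 3. Elavl4 had 131, 113 and 125 CPM in NMDA replicates 1, 2 and 3, and 97.3, 110 and 124 CPM in control replicates 1, 2 and 3. For both genes pair 1 stood apart, with differences of 0.24 for Elavl2 and 0.43 for Elavl4, against -0.06 and 0.09 for Elavl2 and 0.03 and 0.02 for Elavl4 in pairs 2 and 3. Neither passed in either fit (log2 fold change 0.09 ± 0.08 for Elavl2 and 0.16 ± 0.11 for Elavl4, SE, edgeR adjusted p = 0.66 and 0.54 without the block, 0.46 and 0.21 with it). With GC and length offsets added to the block both passed, at 0.23 (adjusted p = 0.031) and 0.26 (adjusted p = 0.025).

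Elavl1 (ENSMUSG00000040028, chr8:4285382-4325413, minus strand), the widely expressed member, had 105, 107 and 107 CPM in NMDA replicates 1, 2 and 3, and 102, 97.4 and 105 CPM in control replicates 1, 2 and 3. These ranges overlapped, and its log2 fold change was the smallest of the 10 genes, 0.06 ± 0.08 (SE; edgeR adjusted p = 0.75 without and 0.60 with the block). As a share of the ELAVL family's summed TPM, Elavl3 made up 49.3%, 48.9% and 51.5% in NMDA libraries and 48.0%, 45.6% and 45.1% in control libraries. That share did not overlap between the groups, though the difference was small. Elavl2 made up 14.5%, 14.3% and 13.6% in NMDA libraries and 15.3%, 16.1% and 14.9% in control libraries. Its share did not overlap either and was lower with NMDA in all 3 pairs. Elavl1 made up 11.2 ± 0.853% in NMDA and 12.4 ± 0.493% in control libraries (SD, n = 3 each), and Elavl4 24.8 ± 0.735% and 25.9 ± 2.03%. The shares of Elavl1 and Elavl4 overlapped between the groups.

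**Figure D2:**
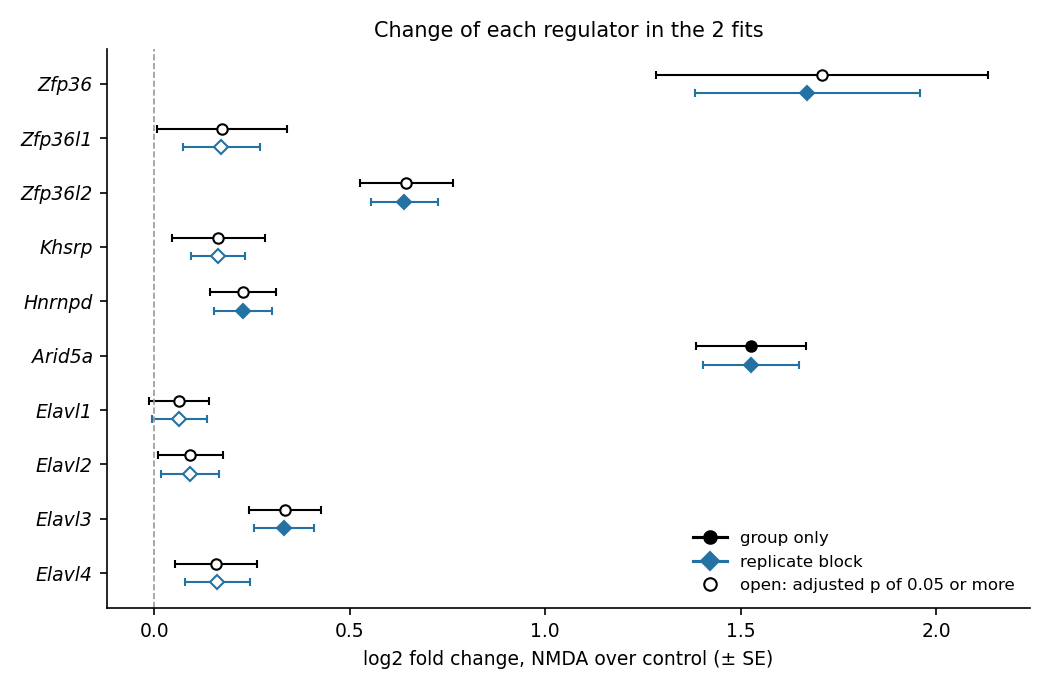
Log2 fold change, NMDA over control, of each gene with its SE, from the edgeR fit with group alone (black circles) and with the replicate block (blue diamonds); filled symbols have an adjusted p under 0.05 over all tested genes. All 10 estimates lie above 0, Arid5a is filled in both fits, and the block narrows the error more than it moves the estimate.

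Scaled for exonic length, the 10 genes spanned a wide range in control libraries. Elavl3 was highest at 133 ± 13.8 TPM in NMDA and 107 ± 16.1 TPM in control libraries (SD, n = 3 each), followed by Hnrnpd at 102 ± 10.4 TPM in NMDA and 88.0 ± 15.7 TPM in control libraries. Elavl4 (66.2 ± 3.51 TPM in NMDA, 60.4 ± 15.3 TPM in control libraries) and Khsrp (62.6 ± 7.71 TPM in NMDA, 56.5 ± 11.9 TPM in control libraries) did not differ beyond their spread, and each was above the other in at least 1 library of both groups. Elavl2 (37.6 ± 1.61 TPM in NMDA, 35.6 ± 5.66 TPM in control libraries) and Elavl1 (29.8 ± 2.45 TPM in NMDA, 28.7 ± 4.60 TPM in control libraries) came next, and their control ranges overlapped.

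Zfp36l2 was at 34.5 ± 6.10 TPM in NMDA and 22.2 ± 3.54 TPM in control libraries; it lay above Elavl1 in all 3 NMDA libraries and below it in all 3 controls. Zfp36l1 (18.4 ± 4.09 TPM in NMDA, 16.6 ± 5.01 TPM in control libraries) was below Zfp36l2 in every library. Arid5a (4.19 ± 0.613 TPM in NMDA, 1.45 ± 0.248 TPM in control libraries) and Zfp36 (2.31 ± 1.19 TPM in NMDA, 0.712 ± 0.275 TPM in control libraries) were the lowest of the 10 in both groups. On the TPM scale the groups of Zfp36 overlapped, with 0.928 TPM in NMDA replicate 1 and 1.02 TPM in control replicate 3. The length used is that of all annotated exons, 12540 bases for Arid5a, which includes retained introns. With the longest transcript of each gene instead, a choice made after the data were seen, Arid5a was at 7.86 ± 1.06 TPM in NMDA and 2.75 ± 0.421 TPM in control libraries and kept its place, Elavl2 (58.5 TPM in controls) passed above Khsrp (50.8 TPM), and Zfp36l2 stayed below Elavl1 in both group means.

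**Figure D3:**
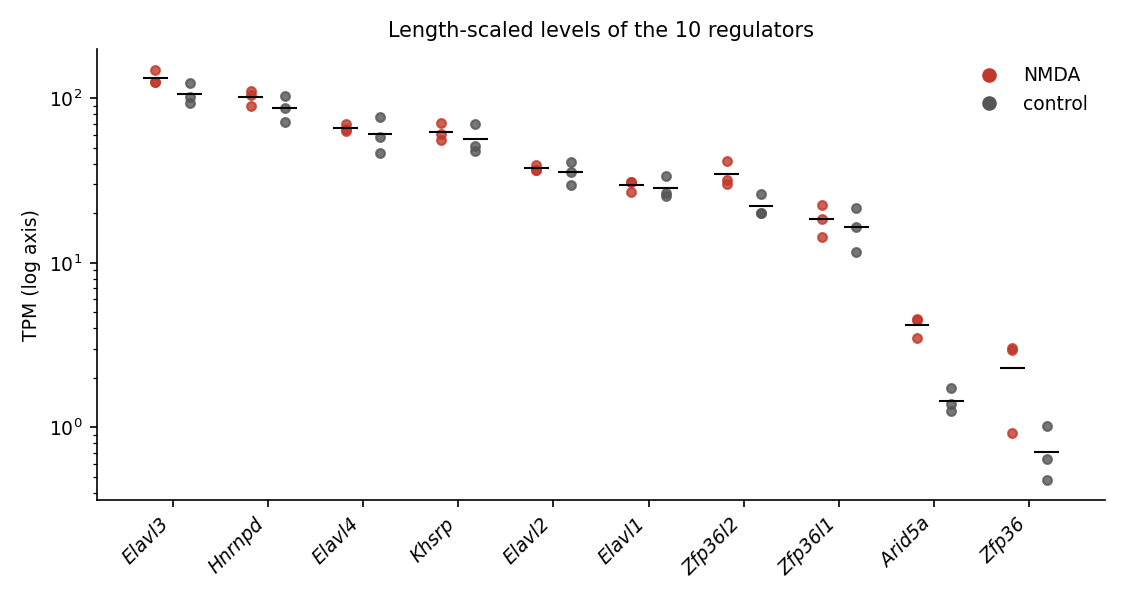
Length-scaled level (TPM, log axis) of the 10 genes, ordered by control mean, in NMDA libraries (red, left of each pair) and control libraries (grey, right); points are libraries and bars are means. Arid5a and Zfp36 sit far below the other 8 genes in both groups, and Arid5a shows the clearest gap between the groups.

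Several of these genes carry AU-rich motifs of the kind their own products bind. The nonamer TTATTTATT, read on the mRNA strand with overlaps counted, was found once in the longest annotated 3′ untranslated region of Zfp36, Zfp36l1, Zfp36l2 and Elavl4, and 8 times in that of Elavl1. It was not found in those of Arid5a, Elavl2, Elavl3, Khsrp and Hnrnpd. Of 13354 tested genes with such a region, 1131 (8.47%) held the nonamer and 10 (0.0749%) held it at least 8 times, while the core pentamer ATTTA was in 71.2%. The Zfp36 region has 774 bases and 3 pentamers, against a median length of 1234 bases. Arid5a had 2 pentamers in 3826 bases.

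The sites of the Zfp36 family and of Elavl1 are shown to compare the motif between genes that rose within pairs (Zfp36, Zfp36l2) and relatives or partners that did not pass; Arid5a, which lacks the nonamer, is shown by one of its 2 pentamers. They are 30 bases from GENCODE M21 transcripts on GRCm38, at chr7:28376951-28376980, chr17:84184914-84184943, chr12:80108167-80108196 and chr8:4285784-4285813 on the minus strand and chr1:36321188-36321217 on the plus strand, with nonamers (the pentamer for Arid5a) in capitals.
Zfp36: ttatgacgactTTATTTATTgtattaagat
Zfp36l2: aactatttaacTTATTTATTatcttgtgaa
Zfp36l1: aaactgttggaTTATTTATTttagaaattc
Elavl1: atgaaaaTTATTTATTTATTTATTTATTtt
Arid5a: aagtcacagtgatATTTAcctgtggttgct

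The Elavl1 window is a run of 4 overlapping nonamers, whereas each Zfp36 family window has 1. Of the 5 genes that hold the nonamer, Zfp36 and Zfp36l2 rose within pairs and Zfp36l1, Elavl1 and Elavl4 did not pass. Of the 5 without it, Arid5a, Elavl3 and Hnrnpd rose within pairs and Elavl2 and Khsrp did not pass. Whether the nonamer had a part in these changes was not tested. Over all tested genes, 12 of 1131 with the nonamer (1.06%) and 42 of 12223 without it (0.344%) were called higher in the fit with group alone. With the block these were 5.39% and 6.10% higher and 12.3% and 7.94% lower. Genes with the nonamer also had longer 3′ untranslated regions, with a median of 2428 bases against 1150, and the part of length in these shares was not tested.

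Some mRNAs reported as targets of AU-rich element binding proteins were among the genes that rose most. Of 28 listed, 19 passed the low-count filter. Of these, Ptgs2 and Ier3 passed it only through the NMDA libraries, and Zfp36 is itself one of the 10 genes described here. Of the other 16, 7 (43.8%) were higher and none lower in the fit with group alone, beside 0.376% and 0.0546% of all genes. Their median log2 fold change was 0.76, against -0.0054 for all genes tested. Within pairs 13 (81.2%) were higher and 1 (6.25%) lower, beside 5.65% and 8.35% of all genes. The list shares genes with those that neurons are known to induce on stimulation, and nothing particular to AU-rich targets is read from these counts. Fos, an AP-1 gene whose mRNA is a classic AU-rich target, had 116 ± 24.5 CPM in NMDA and 3.30 ± 0.573 CPM in control libraries (log2 fold change 5.13 ± 0.19). Nr4a1 (2.91 ± 0.12), which encodes a nuclear receptor, Junb (3.24 ± 0.21), Egr1, Dusp1 (1.63 ± 0.20), which encodes a MAP kinase phosphatase, Btg2 and Ier2 (1.80 ± 0.24) were the others called with group alone. Of these 7, Fos and Dusp1 held the nonamer. Ptgs2, which encodes cyclooxygenase 2 and also holds it, had 2.90 ± 0.102 CPM in NMDA and 0.395 ± 0.1495 CPM in control libraries (SD, n = 3 each), where it was too low to pass the filter. Vegfa, which encodes an angiogenic growth factor, was the one that fell within pairs (-0.27 ± 0.07, edgeR adjusted p = 0.018).

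Of 14 mRNAs reported as targets of the neuronal ELAVL proteins, 1 (7.14%) was higher without the block, beside 0.376% of all genes. It was Homer1 (1.13 ± 0.13 SE, edgeR adjusted p = 0.0049), a postsynaptic scaffold gene. Within pairs 3 (21.4%) were higher and 1 (7.14%) lower, beside 5.65% and 8.35% of all genes. Cdkn1a, higher within pairs, is on both this list and that of the AU-rich targets. Nothing particular to ELAVL targets is read from these counts. Gap43, which encodes a growth cone protein and is a textbook Elavl4 target, had 1080 ± 88.6 CPM in NMDA and 862 ± 53.3 CPM in control libraries and rose within pairs (0.32 ± 0.08, edgeR adjusted p = 0.014; adjusted p = 0.24 without the block). Camk2a, which encodes a subunit of a calcium-dependent kinase, fell within pairs (-0.39 ± 0.08, adjusted p = 0.0022).

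Of 52 tested genes of deadenylation, decapping and the exosome, 1 (1.92%) was higher and none lower with group alone, beside 0.376% and 0.0546% of all genes. Within pairs 3 (5.77%) rose and 5 (9.62%) fell, beside 5.65% and 8.35% of all genes, so these shares were near the background. Among 20 deadenylation genes 1 was called with group alone, Btg2, a recruiter of the CCR4-NOT deadenylase, at 32.2 ± 5.28 CPM in NMDA and 15.3 ± 0.888 CPM in control libraries (log2 fold change 1.07 ± 0.14 SE, edgeR adjusted p = 0.0067); the call was lost without control replicate 2. Its relatives Tob2 (0.32 ± 0.10) and Tob1 (0.32 ± 0.10) rose and the complex subunit Cnot10 (-0.36 ± 0.08) and the deadenylase subunit Pan2 (-0.32 ± 0.09) fell within pairs. Of 17 decapping and 5′ decay genes none passed with group alone (2 at an unadjusted p under 0.05), and the decapping scaffold Edc4 (-0.42 ± 0.08) and the 5′ exonuclease Xrn1 (-0.48 ± 0.09) fell within pairs. Lsm2 (0.24 ± 0.13), part of the LSM ring, passed in neither fit. Of 15 tested genes of the exosome and its helpers none passed with group alone (1 at an unadjusted p under 0.05), and Ttc37 (-0.36 ± 0.09), a subunit of the SKI complex, fell within pairs. The exosome genes Exosc5 (0.39 ± 0.20) and Dis3l (0.14 ± 0.10) passed in neither fit. Median log2 fold changes were 0.0091 for deadenylation, -0.0040 for decapping and 0.030 for exosome genes.

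Of 37 other tested RNA-binding regulators of stability or translation, none passed with group alone (8, or 21.6%, at an unadjusted p under 0.05, beside 13.7% of all genes; median log2 fold change 0.061). Within pairs 6 (16.2%) rose and 3 (8.11%) fell, beside 5.65% and 8.35% of all genes. The smallest p within pairs was that of a gene that fell, Tia1 (-0.56 ± 0.08, edgeR adjusted p = 5.29e-05), which had 149 ± 34.3 CPM in NMDA and 219 ± 32.6 CPM in control libraries (SD, n = 3 each). Those with the smallest p in the fit with group alone were Ptbp1 (0.42 ± 0.08 within pairs, edgeR adjusted p = 0.0012), which encodes the polypyrimidine tract binding protein, Hnrnpab (0.37 ± 0.07, adjusted p = 0.0015), a relative of Hnrnpd, and Pcbp1 (0.45 ± 0.07, adjusted p = 2.25e-04), which encodes a poly(C) binding protein. Tia1 and its relative Tial1 (-0.32 ± 0.07, adjusted p = 0.0053) encode AU-rich element binding proteins of stress granules; Tial1 also fell within pairs, as did Rc3h1 (-0.24 ± 0.07, adjusted p = 0.030), which encodes Roquin-1. Of 15 genes for signalling to Zfp36 or its transcription, 4 (26.7%) were higher and none lower with group alone, beside 0.376% and 0.0546% of all genes. Within pairs 5 (33.3%) were higher and none lower, beside 5.65% and 8.35%. The 4 were Egr1, Srf, Dusp1 and Dusp6 (1.02 ± 0.12), all of which are also induced by neuronal activity. Nothing particular to Zfp36 is read from these counts.

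**Figure D4:**
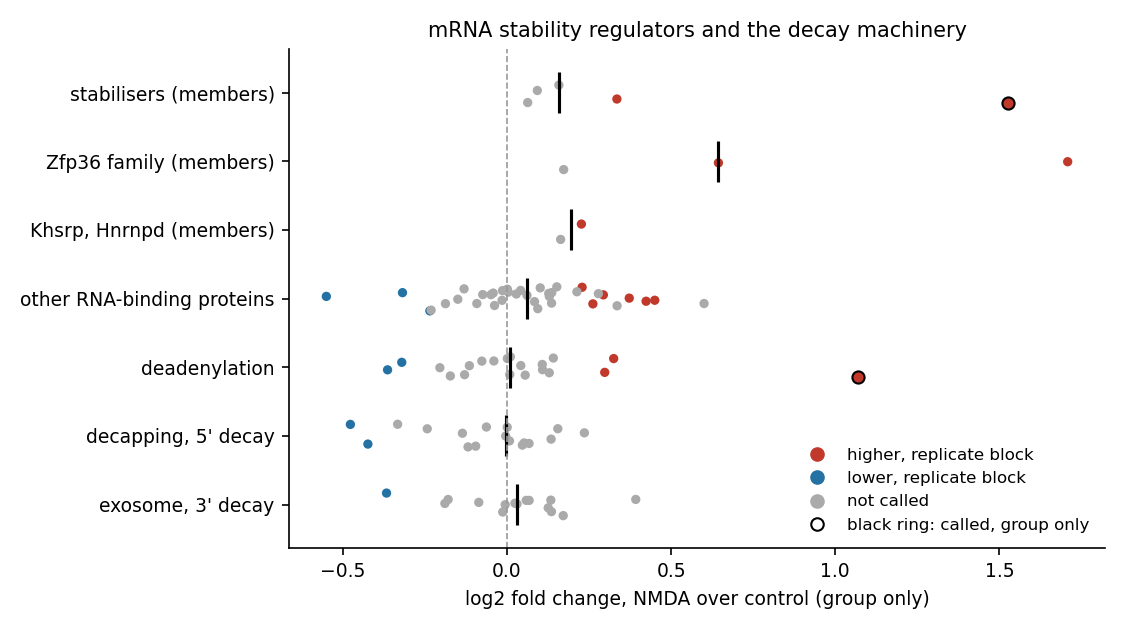
Log2 fold change, NMDA over control, in the fit with group alone, for the 10 regulators by role, the other RNA-binding regulators and the decay machinery. Each point is a gene, black bars are list medians, colour gives the call with the replicate block and a black ring a call with group alone. Arid5a and Zfp36 lie far to the right of nearly all other RNA-binding regulators and decay machinery genes, whose list medians are between -0.0040 and 0.061.

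The cultures hold several cell types, and in bulk RNA a change in the number of cells of a type and in RNA per cell cannot be told apart. All 10 excitatory and all 14 inhibitory neuron markers were expressed above the filter. The excitatory list, which includes Slc17a7, summed to 1052 to 1248 CPM in NMDA and 1225 to 1356 CPM in control libraries. Its median log2 fold change was -0.011, and within pairs 2 (20%) rose and 1 (10%) fell, beside 5.65% and 8.35% of all genes. The 1 that fell was Camk2a, the largest single part of the sum, at 518 ± 52.0 CPM in NMDA and 679 ± 73.3 CPM in control libraries. The inhibitory list, which includes Gad1, summed to 871 to 953 CPM in NMDA and 804 to 881 CPM in control libraries (median 0.062). All 10 astrocyte markers were also above the filter, at 2368 to 3606 CPM in NMDA and 2196 to 2864 CPM in control libraries. None passed with group alone (2 at an unadjusted p under 0.05). Within pairs 7 (70%) rose and none fell (median 0.30), beside 5.65% and 8.35% of all genes. Summed fibroblast and mural markers were at 132 to 245 CPM in NMDA and 104 to 140 CPM in control libraries. The difference in the sum lay in the smooth muscle genes Tagln (0.67 ± 0.08, edgeR adjusted p = 1.17e-05) and Acta2 (0.56 ± 0.12, adjusted p = 0.0092), which rose within pairs. The fibroblast genes Dcn (-0.18), Lum (-0.16) and Col1a1 (-0.15, log2 fold changes with group alone) passed in neither fit, and the list's median was 0.057. Of 11 microglia markers 3 were tested, at a summed 10.4 to 18.2 CPM in NMDA and 14.7 to 15.7 CPM in control libraries. Of 6 endothelial markers 2 were tested, Kdr and Pecam1, and neither passed in either fit. The endothelial list summed to a mean of 17.6 CPM in NMDA and 15.2 CPM in control libraries, while its marker Cldn5 was at 0 in every library. Oligodendrocyte markers were highest in replicate 1 of both groups, at 229 CPM in NMDA and 255 CPM in control, against 79.9 to 91.3 CPM in the other 4 libraries. None of 6 oligodendrocyte precursor markers passed in either fit. Of 11 progenitor and cycling markers, 4 (36.4%) rose and none fell within pairs, beside 5.65% and 8.35% of all genes. Zfp36, Zfp36l1, Zfp36l2 and Arid5a are not specific to neurons. Beside their changes stand the values of the astrocyte, progenitor and cycling markers and those of Tagln and Acta2. What these values have to do with the changes was not tested.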

How the data were processed

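The authors deposited raw read counts per gene for 6 libraries, with Ensembl identifiers and gene symbols. Per the submitters' processing notes, Trimmomatic, TopHat and HTSeq were used with the builds mm10 and GRCm38.p6. For tool versions, gene annotation and whether strand was used in counting, nothing is given in the sources used here. All 6 libraries were stranded, poly(A)-selected and made with single-end adapters, per the labels' protocols.

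Counts were tested with edgeR 4.0.16 in R 4.3.3: a low-count filter (minimum count 10, minimum total 15), TMM scaling, robust quasi-likelihood tests of group alone, and p-values adjusted by Benjamini-Hochberg over all 14642 genes tested, called under 0.05. CPM values use TMM-scaled library sizes, and TPM values use exonic lengths from GENCODE M21 (GRCm38), which held 36345 of 38293 rows. Rows with an identifier but no symbol held 0.219% to 0.246% of counts and stayed in the tests. Differences within pairs are of log2 CPM with a prior count of 2. Alternatives used DESeq2 1.42.0, limma 3.58.1 (voom) and mgcv 1.9.3 (GC and length offsets). The fitting code was tested on simulated counts with known changes. Figures used Python 3.11.15, pandas 2.3.3 and matplotlib 3.10.9.

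Same-numbered libraries deviated from their group means together, with correlations of 0.54, 0.38 and 0.49 for numbers 1, 2 and 3. Those between different numbers were from -0.41 to -0.02. Centring on group means pushes these negative where the same-numbered ones are positive, so they add no separate evidence. For the same-numbered correlations the numbers were taken as pairs, a reading that comes from the data and not from the labels. A second fit that adds the replicate number (the replicate block) is given beside results whose call it changes. Libraries of one group differed beyond sampling noise (chi-square of 8.27 to 58.7 per degree of freedom).

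The 10 genes, the other lists and the tests were chosen with earlier results of these data known. All 10 are named, as are the 3 genes of each decay, stability or target list with the smallest p in the fit with group alone and any that passed it; others named were picked after their values were seen. RefSeq promoters (GRCm38.p6) were matched by symbol for 9 of the 10.

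Exons of 7 of the 10 genes overlap those of another gene: 1672 of 2990 bases for Zfp36l1 (Gm26669, opposite strand, 0 to 5 counts a library), and 63 to 385 bases for the others. The overlap is on the opposite strand in all of these but Elavl3 (Gm49318, same strand, 256 bases). Without the strand setting, reads in the opposite-strand overlaps cannot be assigned with certainty. For Elavl3 that setting would not settle it. At most 3.13% of a gene's 50-base stretches occurred in annotated transcripts of another gene (Zfp36l1, with its processed pseudogene).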

Additional observations from a re-analysis of the deposited data

How the results depend on the processing

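Arid5a was called higher under all 19 alternatives, with log2 fold changes of 1.42 to 1.66 and adjusted p of at most 0.019. No estimate of the 10 genes changed sign under any of them. Zfp36 and Zfp36l2 were each called under 10, Elavl3 under 8, Hnrnpd under 5, and Elavl2 and Elavl4 under 1 (GC and length offsets with the block). Elavl1, Zfp36l1 and Khsrp were called under none.

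Against 1 gene of the 10 higher with group alone, the replicate block, DESeq2 with the replicate block and the replicate block with DESeq2 size factors gave 5, the block with GC and length offsets 7, the DESeq2 Wald test 4 and no low-count filter 3. None was lower under any. Over all genes, against 55 higher and 8 lower, these settings gave in the same order 828 and 1223, 433 and 530, 926 and 1151, 1148 and 967, 149 and 157, and 130 and 130. The decay and stability machinery here joins the 52 genes of deadenylation, decapping and the exosome with the 37 other RNA-binding regulators. In it, against 1 higher (Btg2) and 0 lower, they gave 9 and 8, 5 and 5, 9 and 8, 12 and 6, 4 and 0, and 3 and 0. DESeq2 size factors without the block gave 5 genes lower. The median log2 change of all genes was -0.0054 with group alone and 0.023 with the block and offsets. The cause of these differences was not tested.

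Leaving out 1 library in turn, with group alone, gave 1 to 3 of the 10 genes, 19 to 89 of all genes and 0 to 1 machinery genes higher, and 0 to 57 of all genes and 0 to 1 machinery genes lower. Without NMDA replicate 1 the 3 were Arid5a, Zfp36 and Zfp36l2. With the block and without both libraries of a number, 4 or 5 of the 10 were higher, 335 to 1341 of all genes higher and 683 to 1366 lower, and 5 to 8 machinery genes higher and 4 to 13 lower. Hnrnpd then passed only without replicate 1. Low counts of Zfp36, 12 to 64 a library, limit what can be said of it.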
